A study of Homo sapiens with 16 samples.

Results

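The chemokines that intestinal epithelial cells can release were followed in Caco-2 cells after 6 h of stimulation. The genes are IL8 (the array's name for CXCL8), CXCL1, CXCL2, CXCL3, CXCL5, CXCL16, CCL20 and CCL2, taken by gene name with every probe that is not a control. They are 8 of the 30982 names the array gives such probes and were read by 11 of 41000 probes, as CXCL2, CXCL3 and CXCL5 had 2 probes each. Caco-2 is a single colon carcinoma line that forms an epithelium, and it was used here in the undifferentiated state, on the third day after seeding. The RNA was read on 16 Agilent arrays of 1 colour, with 1 array per culture and 4 per condition. MED-CTL cells stayed in medium with 1% serum, which all other cells received as well. PT-G cells were given gliadin digested with pepsin and trypsin, PT cells the same digestion mixture without gliadin, and p31-43 cells 150 µg/ml of a synthetic gliadin peptide. Heat was used to inactivate both enzymes once the digestion was done, and the authors report checking this with a trypsin substrate. A test of PT-G found no endotoxin, and no such test of PT is described. The 4 arrays of a condition came from independent experiments a few passages apart.

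Chemokines are small secreted proteins that guide leukocytes along a concentration gradient. IL8, CXCL1, CXCL2, CXCL3 and CXCL5 carry the ELR motif and attract mainly neutrophils through CXCR1 and CXCR2. CCL20 attracts immature dendritic cells and lymphocytes that carry CCR6, and in the gut it is made by the epithelium that covers lymphoid follicles. CCL2 attracts monocytes through CCR2. CXCL16 is made as a membrane protein, binds CXCR6, and is released when the protease ADAM10 cuts it. Many of these genes are transcribed at a low rate in resting epithelium and are induced within hours through NF-kB and AP-1, among other factors.

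The sequences just before the gene starts are shown because CXCL5, for which no rise was seen, shares a motif with some members that rose. These are IL8, CXCL1, CXCL2 and CXCL3, while CCL20 rose and lacks that motif. No promoter was matched for CXCL16 and CCL2. Promoters were taken from RefSeq (GRCh38.p14), where 6 of the 8 genes were matched, and for each gene the 120 bases before the start are given 5′ to 3′ on the gene's own strand. Capitals mark GGAATTTCC, a κB site motif, or in CCL20 the match to the NF-kB consensus. IL8 lies at chr4:73740449-73740568 (+), CXCL1 at chr4:73869273-73869392 (+), CXCL2 at chr4:74099196-74099315 (−), CXCL3 at chr4:74038690-74038809 (−), CXCL5 at chr4:73998678-73998797 (−) and CCL20 at chr2:227813722-227813841 (+).
IL8: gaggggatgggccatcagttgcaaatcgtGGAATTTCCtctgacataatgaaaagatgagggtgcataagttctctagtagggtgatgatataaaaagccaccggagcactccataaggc
CXCL1: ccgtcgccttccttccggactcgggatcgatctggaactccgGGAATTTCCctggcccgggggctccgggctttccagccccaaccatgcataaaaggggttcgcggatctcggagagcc
CXCL2: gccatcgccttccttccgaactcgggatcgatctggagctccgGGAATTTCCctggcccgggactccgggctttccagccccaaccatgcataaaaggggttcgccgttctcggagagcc
CXCL3: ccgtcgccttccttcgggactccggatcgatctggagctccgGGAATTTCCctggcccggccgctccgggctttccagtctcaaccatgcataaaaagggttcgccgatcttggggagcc
CXCL5: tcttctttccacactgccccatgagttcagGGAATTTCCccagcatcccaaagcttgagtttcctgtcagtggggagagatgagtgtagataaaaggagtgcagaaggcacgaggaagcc
CCL20: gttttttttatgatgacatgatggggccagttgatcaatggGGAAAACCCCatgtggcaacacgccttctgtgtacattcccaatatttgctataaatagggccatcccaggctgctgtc
GGAATTTCC was found in 5 of these 6 promoters and in 0.461% of 35116 RefSeq promoters of 300 bases, searched on both strands. It began 91 bases before the start of IL8, 78 before CXCL1, 77 before CXCL2, 78 before CXCL3 and 90 before CXCL5. It lay inside a match to the NF-kB consensus in CXCL1, CXCL2, CXCL3 and CXCL5, a consensus that 11.3% of all promoters hold. IL8 had no match to that consensus, and CCL20 had 1 that began 79 bases before its start. TGANTCA, an AP-1 motif present in 7.71% of promoters, was found in IL8 alone of the 6, beginning 137 bases before its start and so outside the bases shown. TATAAA, present in 11.5% of promoters, was found in IL8 and CCL20, and GCGNGGGCG, an EGR motif present in 9.43%, in none of the 6. The 120 bases of CXCL1 and CXCL3 were identical at 109 positions, or 90.8%, without gaps. Other pairs were less alike at their best shift, with 67.5% for CXCL1 with CXCL2 and 63.0% for CXCL2 with CXCL3. CXCL1 had 38.5% with CXCL5, 31.7% with IL8 and 32.8% with CCL20. The 5 promoters with GGAATTTCC belong to related genes near one another on chr4. They are not independent matches to weigh against the share over all promoters. A match of letters is a description of these windows and not of a factor bound there.

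A run is used here for the arrays whose names carry the same date, and each of 4 runs held every condition once. The PT array of run 3 and the p31-43 array of run 4 lay on a separate slide that held no other array. Within-run differences that use either of them therefore cross slides. Levels are log2 median foreground intensities after quantile normalization without background correction, and a log2 fold change is a difference of such levels. A level read by one probe cannot be set against that of another probe. Between 63.8% and 78.3% of spots were well above background on an array, by the mark of the image analysis. Of the chemokine probes, 8 were well above background on all 16 arrays, IL8 on 8 arrays, CCL2 on 6 and the second CXCL5 probe (A_23_P110204) on none. Of 11 epithelial marker genes, such as the keratins KRT8 and KRT18, villin (VIL1) and EPCAM, 10 were well above background on all 16 arrays, and CDX1 on 1. Of 12 leukocyte marker genes, PTPRC, which encodes CD45, and MS4A1 and FCGR3B were among those well above background on no array, and CD3E, CD14, CD68, ITGAM and LYZ on all 16. None of the 12 reached a nominal p under 0.01 in any of the 4 comparisons. Probes of CXCL1, CXCL2 and CXCL3 may share signal, since these genes are close to identical in sequence, and 1 CXCL2 probe (A_24_P257416) lists accessions of both CXCL2 and CXCL3.

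Some of the chemokines were higher with PT-G and with PT, and none passed a threshold with p31-43. Against MED-CTL, IL8, CCL20 and CXCL3 (A_24_P183150) passed a nominal p under 0.01 with PT-G, and the same 3 with CXCL1 passed it with PT, in each case upwards. That is 3 of 11 probes for PT-G, where 1.91% of all 40982 probes tested passed upwards, and 4 of 11 for PT, where 1.8% did. All 4 PT-G arrays lay above all MED-CTL arrays for 2 of 11 probes, against 2.01% of all probes, and all 4 PT arrays for 4 of 11, against 2.36%. At an adjusted p under 0.05 (limma, Benjamini-Hochberg over all probes tested), IL8 and CCL20 passed in both comparisons, against 0.593% of all probes upwards for PT-G and 0.437% for PT. The median log2 fold change of the 11 probes was 0.63 with PT-G and 0.60 with PT, beside −0.01 over all probes tested in each. These comparisons share the 4 MED-CTL arrays. In RNA of whole cultures, more cells that express a gene and more RNA per cell cannot be told apart. Levels differed between runs in the same way in several conditions, and with the run as a block in the model 7 of the 11 probes, those of IL8, CXCL1, CXCL2, CXCL3 and CCL20, passed upwards at both thresholds with PT-G and with PT. In that model 4.92% of all probes passed the nominal and 3.21% the adjusted threshold upwards for PT-G, and 4.86% and 3.15% for PT. With the replicate number as a block, the same 7 probes passed the nominal threshold with PT-G, where 4.09% of all probes did so upwards.

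**Figure D1:**
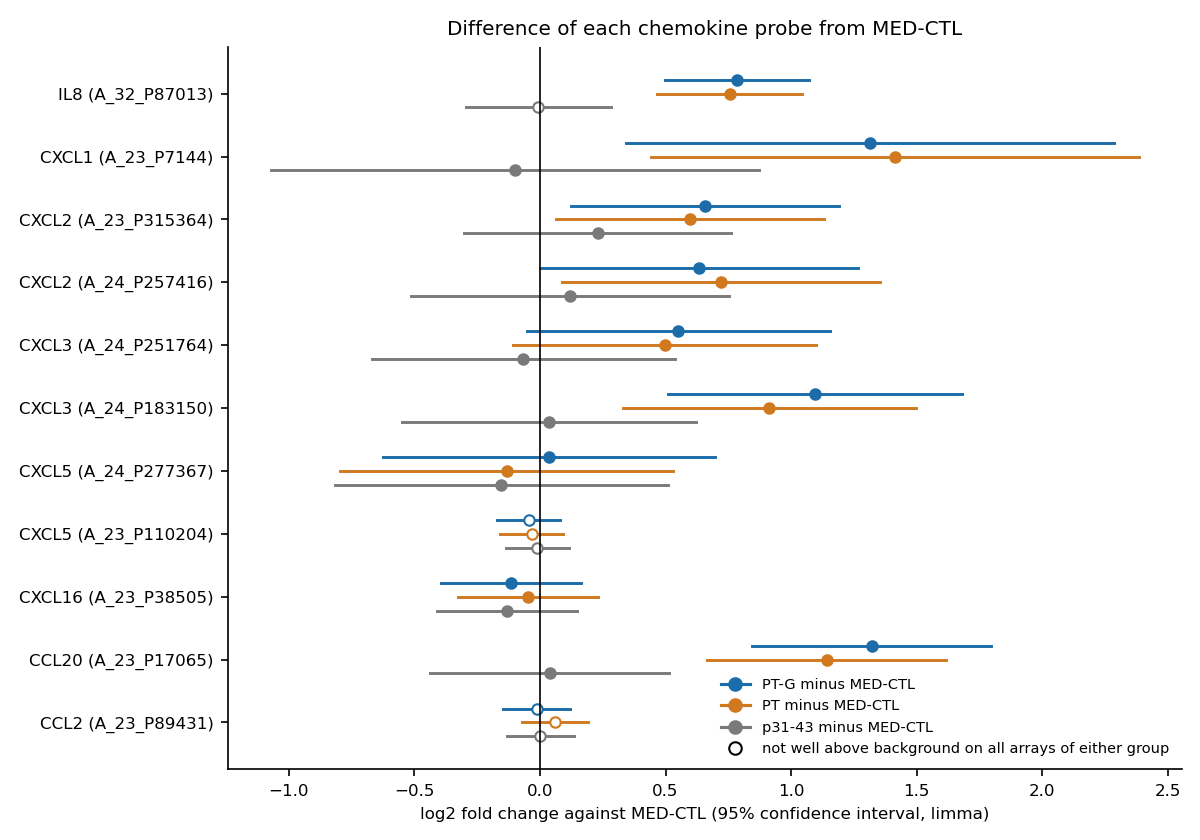
Log2 fold change against MED-CTL of each of the 11 chemokine probes (rows) for p31-43, PT and PT-G, with the 95% confidence interval from limma (lines). Intervals of IL8, CXCL1, CCL20, both CXCL2 probes and CXCL3 (A_24_P183150) lie above 0 for PT and PT-G, and those for p31-43 span 0 for every probe. Differences of IL8 with PT and PT-G are lower limits as regards background, since IL8 was not well above it in MED-CTL.

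IL8 is the neutrophil attractant for which the chemokine response of epithelium is best known. In runs 1 to 4 its level was 6.12, 6.00, 6.10 and 5.93 on the MED-CTL arrays and 6.06, 5.98, 6.11 and 5.96 on the p31-43 arrays. It was 7.19, 6.49, 6.77 and 6.72 with PT and 6.68, 6.93, 7.09 and 6.58 with PT-G. Every PT and every PT-G array lay above every MED-CTL and p31-43 array, and IL8 was well above background on all 8 of the former and on none of the 8 latter. The MED-CTL level is therefore only an upper limit. IL8 was at least 1.72-fold higher with PT-G than in MED-CTL, with means of 6.82 ± 0.23 and 6.04 ± 0.09 (SD, n = 4 arrays; limma, adjusted p = 0.0126). It was at least 1.69-fold higher with PT, with a mean of 6.79 ± 0.29 (SD, n = 4 arrays; limma, adjusted p = 0.0172). For these bounds the MED-CTL level on each array was the higher of the IL8 signal and the lowest signal well above background. Within single runs the difference from that upper limit was 0.57 to 0.99 on the log2 scale for PT-G and 0.49 to 1.07 for PT, and these are lower limits as well. Without background subtraction such a dim probe is compressed. The deposited processed intensity, which is background-subtracted, was 4.18 to 7.82 on the MED-CTL arrays, 36.3 to 92.0 with PT and 43.3 to 63.9 with PT-G. These intensities are not scaled between arrays, and no fold is drawn from them. The highest is that of PT replicate 3, an array with a median intensity of 410, against 153 to 278 on the MED-CTL arrays. The adjusted p of the log2 levels rose to 0.0508 for PT-G without PT-G replicate 2 and to 0.0515 for PT without PT replicate 3. It was 0.151 for PT-G and 0.237 for PT with median scaling, and 0.103 and 0.133 in fits of only the 2 groups compared, all with a nominal p under 0.01 (limma).

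**Figure D2:**
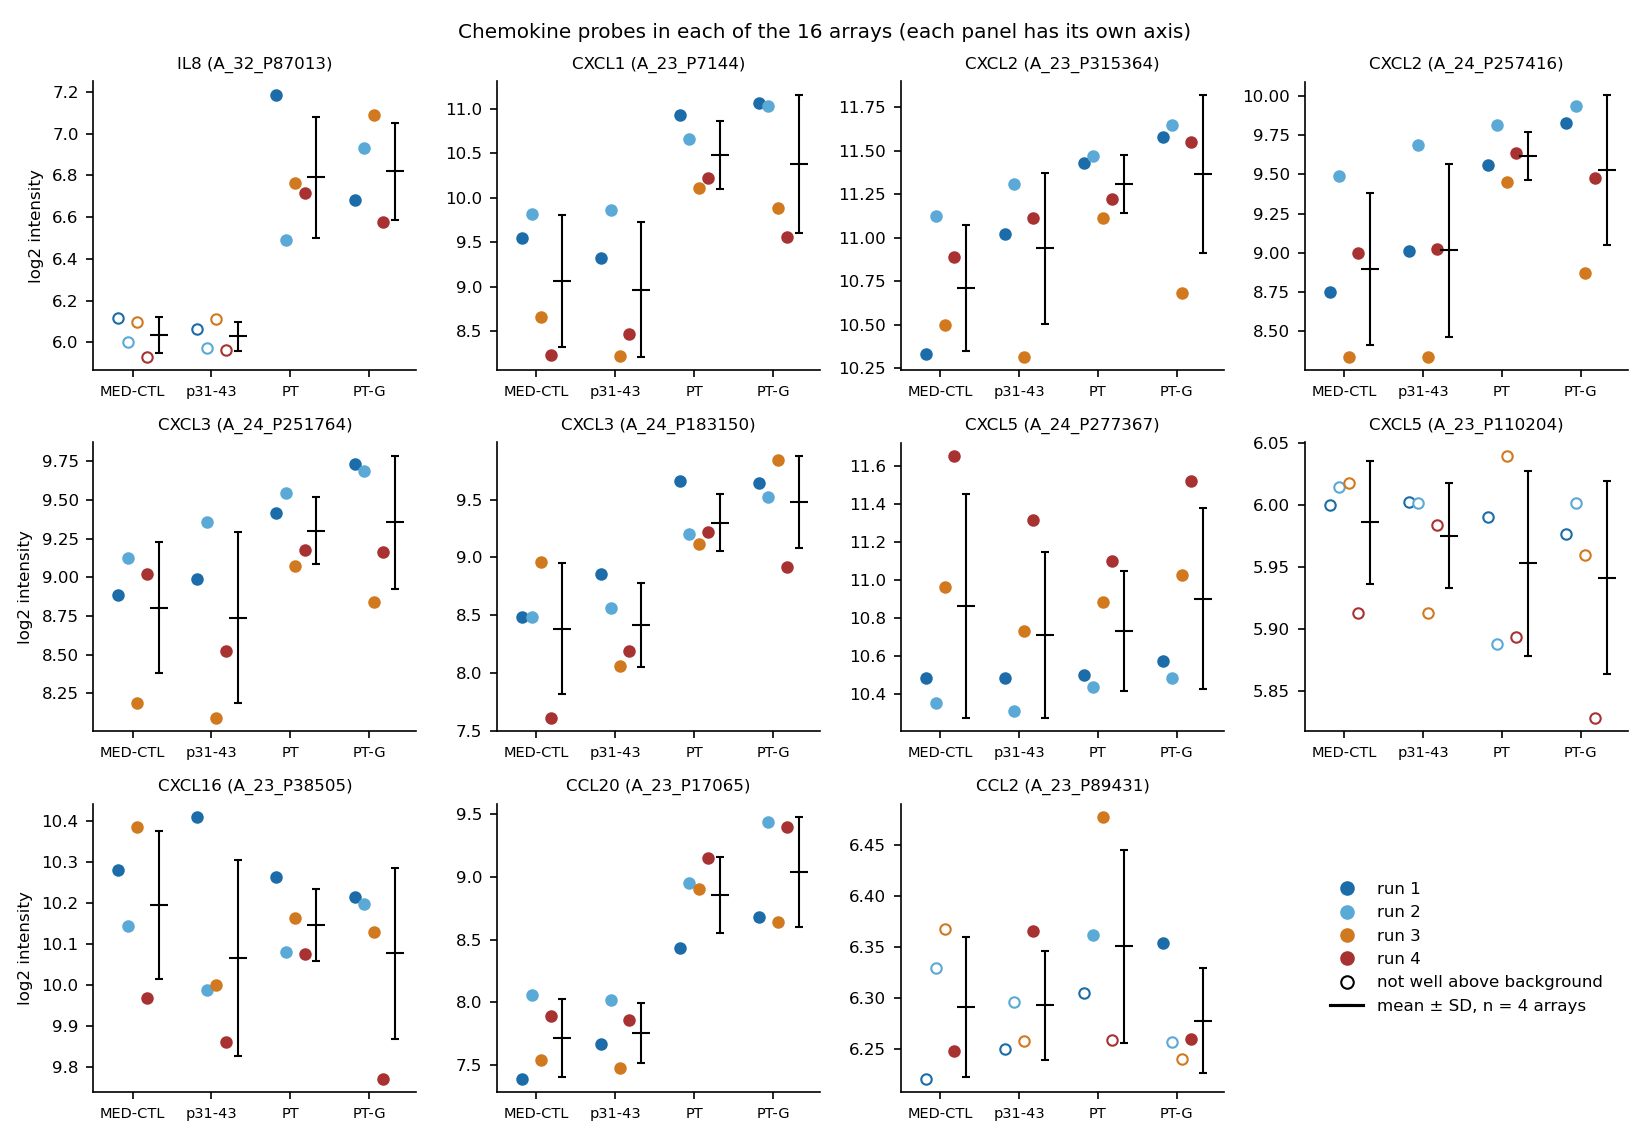
Log2 intensity of the 11 chemokine probes (panels, each with its own axis) on the 16 arrays, coloured by run. Open points were not well above background, and bars give the mean ± SD of 4 arrays. IL8 and CCL20 on all PT and PT-G arrays lie above all MED-CTL arrays, whereas CXCL5, CXCL16 and CCL2 overlap between conditions.

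CXCL1, a neutrophil attractant that acts through CXCR2, was higher with PT and PT-G in every run. Its level in runs 1 to 4 was 9.55, 9.82, 8.67 and 8.23 on the MED-CTL arrays and 10.93, 10.66, 10.10 and 10.23 on the PT arrays. With PT-G it was 11.06, 11.03, 9.88 and 9.56, and with p31-43 9.32, 9.86, 8.22 and 8.47. Runs 3 and 4 were lower than runs 1 and 2 in every condition, and the PT-G array of run 4 lay below the MED-CTL array of run 2, while no PT array overlapped MED-CTL. CXCL1 was 2.66-fold higher with PT, by 1.41 on the log2 scale (SE 0.45; adjusted p = 0.240 in limma), a difference that passed the nominal threshold. With PT-G it was 1.31 higher on the log2 scale (SE 0.45; adjusted p = 0.313 in limma), where the nominal p of 0.0115 misses the threshold. Within runs the differences lay between 1.21 and 1.51 for PT-G and between 0.85 and 1.99 for PT, all upwards. With the run as a block the SE fell to 0.17, and CXCL1 passed with PT-G (limma, adjusted p = 0.00137) and PT (limma, adjusted p = 0.000967). With the replicate number as a block it passed with PT-G as well (limma, adjusted p = 0.00259). For PT the nominal p exceeded 0.01 without MED-CTL replicate 3 or 4, or without PT replicate 1, 2 or 4, reaching at most 0.0293.

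CXCL2, a close relative of CXCL1, is read by 2 probes. The first CXCL2 probe (A_23_P315364) read 10.33, 11.13, 10.50 and 10.89 in runs 1 to 4 of MED-CTL, 11.43, 11.47, 11.12 and 11.22 with PT, and 11.58, 11.65, 10.69 and 11.55 with PT-G. The PT-G array of run 3 stood far below the other 3. It was 0.66 higher on the log2 scale with PT-G (SE 0.25) and 0.60 with PT (SE 0.25), with adjusted p of 0.416 and 0.466 in limma. The second CXCL2 probe (A_24_P257416) gave differences of 0.63 and 0.72 (SE 0.29 each), with adjusted p of 0.624 and 0.452 in limma. Neither CXCL2 probe passed the nominal threshold in the main model, although both were higher in 4 of 4 runs for either treatment. With the run as a block both passed, with adjusted p of 0.0297 and 0.0241 for PT-G and 0.0416 and 0.0125 for PT (limma). With the replicate number as a block the adjusted p for PT-G was 0.0669 and 0.110 in limma, and both probes passed the nominal threshold.

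For CXCL3, probe A_24_P183150 read 8.49, 8.48, 8.96 and 7.61 in runs 1 to 4 of MED-CTL, 9.66, 9.20, 9.12 and 9.22 with PT, and 9.64, 9.52, 9.84 and 8.92 with PT-G. No PT array overlapped MED-CTL, and with PT-G the array of run 4 lay below the MED-CTL array of run 3. This probe rose 2.14-fold with PT-G, by 1.10 on the log2 scale (SE 0.27), and 1.88-fold with PT, by 0.91 (SE 0.27). Both passed the nominal threshold, with adjusted p of 0.0929 and 0.193 in limma. Within runs the differences ranged from 0.88 to 1.31 for PT-G and from 0.15 to 1.61 for PT. Its adjusted p for PT-G was 0.0115 with the run and 0.0162 with the replicate number as a block (limma), and without MED-CTL replicate 3 it was 0.0436. The nominal p for PT exceeded 0.01 without MED-CTL replicate 4 or PT replicate 1, reaching at most 0.0180, and in a fit of the PT and MED-CTL arrays alone it was 0.0107. The other CXCL3 probe (A_24_P251764) was 0.55 higher on the log2 scale with PT-G and 0.50 with PT (SE 0.28 each), with adjusted p of 0.708 and 0.694 in limma. It read 8.89, 9.12, 8.19 and 9.02 in MED-CTL, 9.41, 9.54, 9.08 and 9.17 with PT, and 9.73, 9.69, 8.84 and 9.17 with PT-G. It was higher in 4 of 4 runs with either treatment, and once the run was a block it passed with adjusted p of 0.0334 (PT-G) and 0.0479 (PT) in limma. With the replicate number as a block the adjusted p for PT-G was 0.0570 in limma, past the nominal threshold.

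CCL20, the CCR6 ligand, rose on every PT and PT-G array. Its level in runs 1 to 4 was 7.39, 8.06, 7.54 and 7.89 in MED-CTL and 7.66, 8.02, 7.48 and 7.86 with p31-43. It was 8.43, 8.95, 8.90 and 9.15 with PT and 8.68, 9.44, 8.64 and 9.40 with PT-G. The lowest PT array lay above the highest MED-CTL array, as did the lowest PT-G array. CCL20 was 2.50-fold higher with PT-G, by 1.32 on the log2 scale (SE 0.22, 95% confidence interval 0.85 to 1.80; limma, adjusted p = 0.0115). It was 2.21-fold higher with PT, by 1.14 (SE 0.22, 95% confidence interval 0.67 to 1.62; limma, adjusted p = 0.0286). Within runs the difference lay between 1.10 and 1.51 for PT-G and between 0.89 and 1.36 for PT. For PT-G the adjusted p stayed under 0.05 in each of the 16 fits that leave out 1 array, at most 0.0468. For PT it exceeded 0.05 without MED-CTL replicate 2 or 3, or without PT replicate 2, 3 or 4, reaching at most 0.107 (limma). With the background-subtracted signal it was 0.0504 for PT-G and 0.0960 for PT, and in fits of only the 2 groups compared 0.151 and 0.101, again with the nominal threshold passed.

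**Figure D3:**
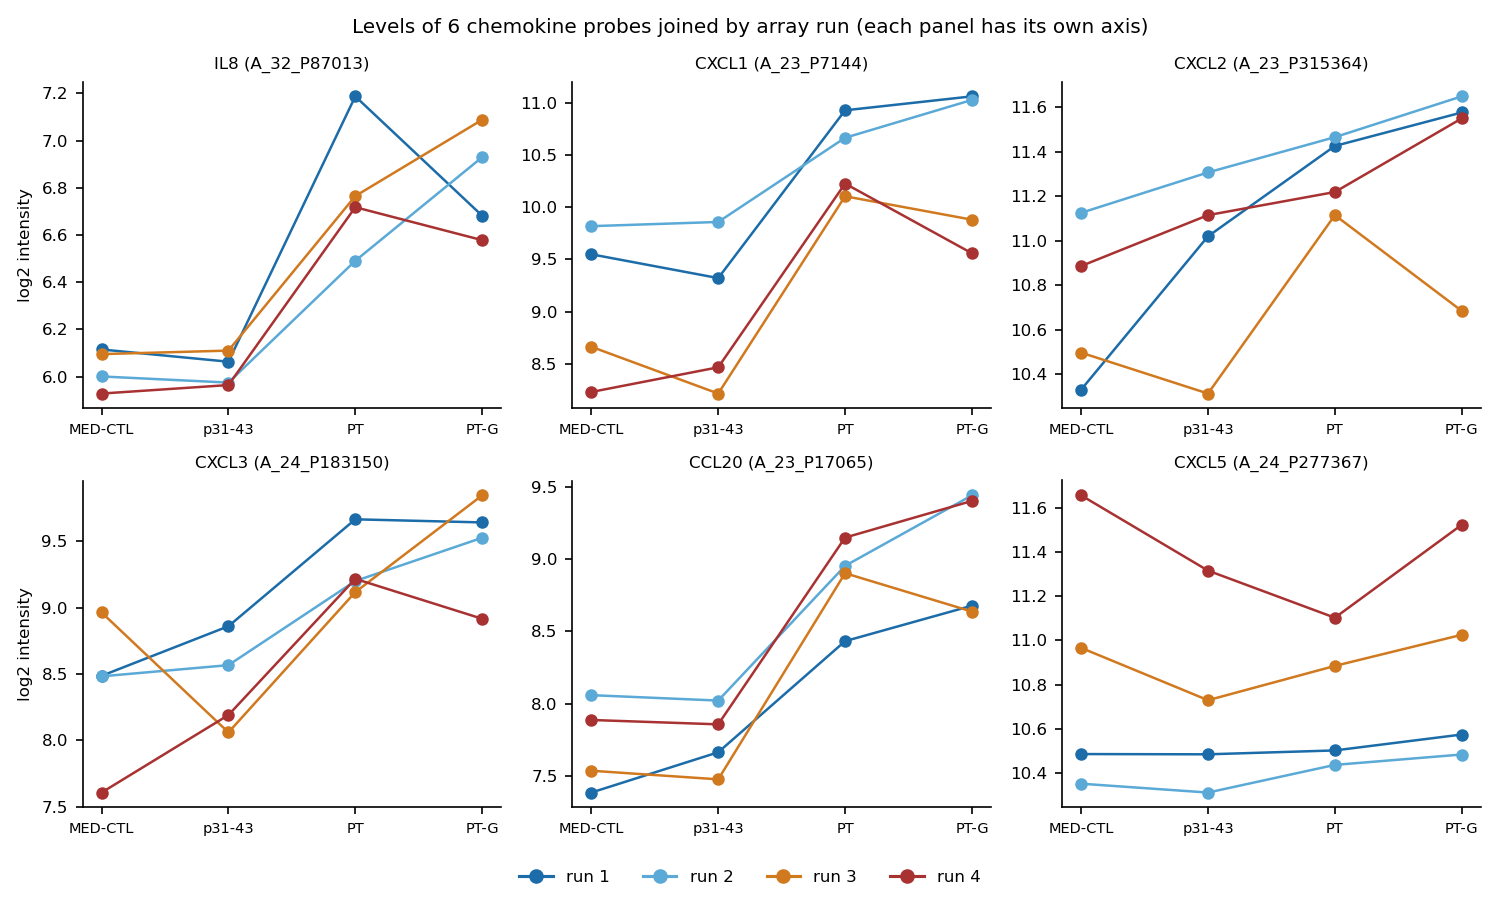
Log2 intensity of 6 chemokine probes (panels, each with its own axis) in the 4 conditions, with lines joining the arrays of a run. For IL8, CXCL1, CXCL2, CXCL3 and CCL20 each run's line lies higher at PT and PT-G than at MED-CTL, and for CXCL5 the 4 runs keep their order in every condition. IL8 was not well above background in MED-CTL and p31-43.

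CXCL5, CXCL16 and CCL2 did not pass the nominal threshold in any comparison. CXCL5, whose promoter holds the same GGAATTTCC as its relatives, read 10.49, 10.35, 10.97 and 11.65 in runs 1 to 4 of MED-CTL (A_24_P277367). With PT-G it read 10.58, 10.48, 11.03 and 11.52, and with PT 10.50, 10.44, 10.88 and 11.10. Runs 3 and 4 were higher than runs 1 and 2 in every condition, the reverse of CXCL1. The log2 fold change was 0.04 with PT-G (95% confidence interval −0.63 to 0.70; limma, adjusted p = 1.00) and −0.13 with PT (−0.80 to 0.53; limma, adjusted p = 0.945). The run as a block lowered the SE from 0.31 to 0.088, with adjusted p of 0.905 for PT-G and 0.427 for PT in limma. CXCL16, the membrane-bound chemokine, read 10.28, 10.14, 10.39 and 9.97 in MED-CTL and 10.21, 10.20, 10.13 and 9.77 with PT-G. Its log2 fold change was −0.12 with PT-G (−0.40 to 0.16; limma, adjusted p = 1.00) and −0.05 with PT (−0.33 to 0.23; limma, adjusted p = 0.952), so that a rise of the size of that of CCL20 lies outside both intervals. A list of shedding proteases and proteoglycans held ADAM10, ADAM17 and 2 syndecans, SDC1 and SDC4. These were well above background on all 16 arrays, and none of the 4 passed the nominal threshold in any comparison. CCL2, the monocyte attractant, is read by 1 probe on 10 spots. The 4 arrays of a condition averaged 6.29 ± 0.07 (MED-CTL), 6.29 ± 0.05 (p31-43), 6.35 ± 0.09 (PT) and 6.28 ± 0.05 (PT-G), each ± SD. It was well above background on the majority of its spots on 1, 1, 2 and 2 arrays of these conditions, and a change of CCL2 was not detectable at this signal. The second CXCL5 probe lay between 5.83 and 6.04 on all 16 arrays, not well above background.

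With the peptide p31-43 no chemokine probe could be told from MED-CTL. None of the 11 probes passed a nominal p under 0.01 in limma, where 0.388% of all probes tested did, and none had an unadjusted p under 0.05. The log2 fold changes ran from −0.15 for CXCL5 (A_24_P277367) to 0.23 for CXCL2 (A_23_P315364). Their median was −0.01, which counts in the probes not well above background. For CCL20 the difference was 0.04 (95% confidence interval −0.44 to 0.51; limma, adjusted p = 1.00), so that the rise seen with PT-G or PT lies outside the interval. For CXCL3 (A_24_P183150) it was 0.03 (−0.55 to 0.62) and for CXCL1 −0.10 (−1.07 to 0.87), an interval wide enough to leave a moderate change of CXCL1 undetected. That interval is from the model without the run, and within runs the CXCL1 difference lay between −0.45 and 0.24. IL8 was not well above background on any array of either group, and no fold is given for it.  The sign of several of these small differences depended on the alternative.

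PT-G and PT were compared directly to ask whether gliadin added to the effect of the digestion mixture. None of the 11 probes passed a nominal p under 0.01 in limma, where 0.0903% of all probes tested did, and none had an unadjusted p under 0.05. IL8 differed by 0.03 on the log2 scale (95% confidence interval −0.26 to 0.32), CCL20 by 0.18 (−0.30 to 0.66), CXCL3 (A_24_P183150) by 0.18 (−0.40 to 0.77) and CXCL1 by −0.10 (−1.07 to 0.87). Within runs IL8 was higher with PT-G in 2 of 4, CXCL1 in 2 of 4, CXCL3 (A_24_P183150) in 2 of 4 and CCL20 in 3 of 4. With the slide as a block CCL20 was 0.28 higher with PT-G, with a nominal p of 0.00948 and an adjusted p of 1.00 (limma). The intervals do not show that PT-G and PT act alike, since that of CXCL1 reaches from −1.07 to 0.87. It is from the model without the run, and within runs the CXCL1 difference lay between −0.67 and 0.36.

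Among themselves the members fell along run and condition in different ways. Over the 16 arrays, which share runs and conditions, the 2 CXCL2 probes had a Pearson r of 0.93, and the CXCL2 probe with accessions of both genes had 0.94 with CXCL3 probe A_24_P251764. The 2 CXCL3 probes had only 0.51 with each other, and A_24_P183150 went more with IL8 (0.87) and CXCL1 (0.82). CCL20 had 0.73 with IL8 and 0.69 with CXCL1, and CXCL5 had −0.53 with CXCL1. Of 17731 probes of other named genes well above background on all 16 arrays, those most like CXCL1 were UBTD1, TICAM1 and ZNF628 (r of 0.97 each). Those most like CCL20 were BDNF and TUBA8 (0.96) and RGS16 (0.95), and most like CXCL3 (A_24_P183150) were STK38L (0.96), CYP26B1 and C11orf17 (0.95). For CXCL2 (A_23_P315364) they were ANKRD37 (0.95), GARNL3 (0.93) and CYP2B6 (0.92), for CXCL5 ARVCF (0.97), NACAP1 (0.97) and CBWD3 (0.95), and for CXCL16 FUBP1, OLFML2A (0.90) and KIAA1609 (0.88). These likenesses describe 16 points and say nothing of shared control.

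Of the receptors for these ligands, only CCR6 was well above background on all 16 arrays. IL8RA and IL8RB, the array's names for CXCR1 and CXCR2, were well above background on 1 array each, both of them MED-CTL, and CXCR6 and CCR2 on none. CCR6, the CCL20 receptor, was 0.46 higher with PT-G and 0.48 higher with PT (SE 0.25 each), with adjusted p of 0.762 and 0.648 in limma, short of the nominal threshold and higher in 4 of 4 runs in each case. Of 23 chemokine receptor genes, 2 passed the nominal threshold, CXCR4 and CCRL2, both upwards with PT-G and with PT, while 3.44% and 3.64% of all probes passed it in either direction. CXCR4, the receptor of CXCL12, ranged from 7.06 to 7.82 in MED-CTL, from 7.16 to 7.92 with p31-43, from 7.74 to 8.77 with PT and from 8.02 to 9.11 with PT-G. The PT-G arrays did not overlap MED-CTL, and 1 PT array did. CXCR4 was 2.20-fold higher with PT-G, by 1.14 on the log2 scale, and 1.98-fold higher with PT, by 0.98 (SE 0.27 each), with adjusted p of 0.0753 and 0.141 in limma. For PT its nominal p exceeded 0.01 without MED-CTL replicate 2 or PT replicate 2 or 4, reaching at most 0.0111. CCRL2, an atypical receptor that binds chemerin, was read by 2 probes. The brighter one (A_23_P69310) ranged from 8.40 to 8.90 in MED-CTL, from 9.15 to 9.52 with PT and from 9.16 to 9.47 with PT-G, without overlap. It was 1.55-fold higher with PT-G (SE 0.14 on the log2 scale; limma, adjusted p = 0.0554) and 1.61-fold higher with PT (SE 0.14; limma, adjusted p = 0.0406), the latter adjusted p exceeding 0.05 in 10 of 16 fits without 1 array, with the background-subtracted signal, with median scaling and in a fit of only the 2 groups compared. With the run as a block the adjusted p was 0.000382 and 0.000963 for CXCR4 and 0.00167 and 0.00113 for CCRL2, with PT-G and PT in that order (limma). The other CCRL2 probe (A_24_P97405) was 0.40 higher on the log2 scale with PT-G and 0.52 higher with PT (SE 0.22 each). It passed for neither treatment (limma, adjusted p of 0.769 and 0.482), and both overlapped MED-CTL. The median log2 fold change over the 23 receptors was 0.04 with PT-G and 0.06 with PT.

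**Figure D4:**
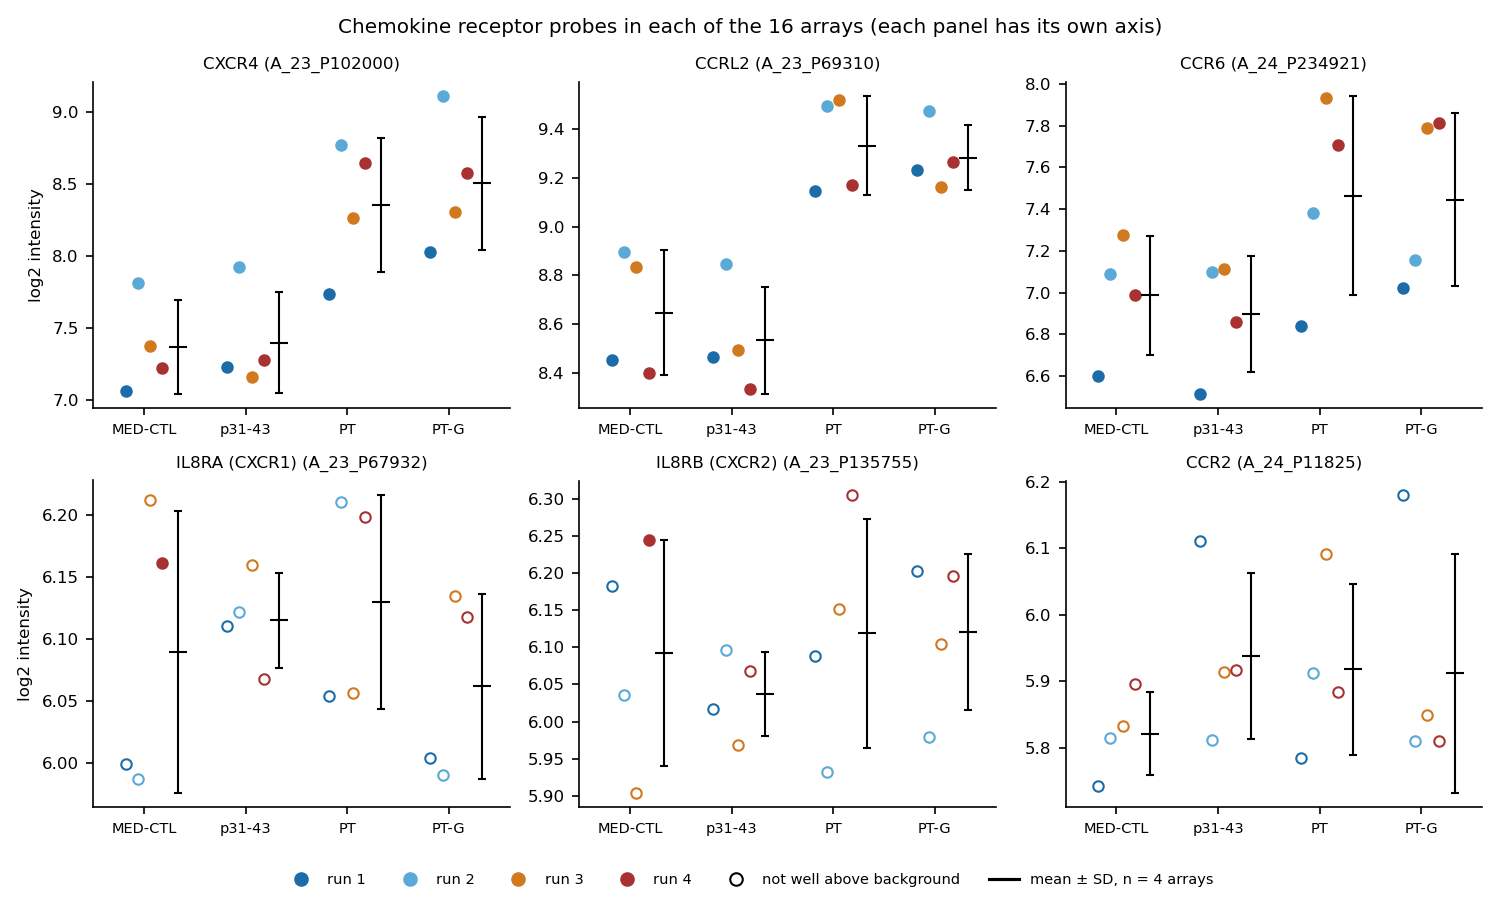
Log2 intensity of 6 chemokine receptor probes (panels, each with its own axis) on the 16 arrays, coloured by run, with the mean ± SD of 4 arrays. CXCR4 and CCRL2 have higher means on PT and PT-G arrays than in MED-CTL, with 1 PT array of CXCR4 overlapping MED-CTL. CCR6 overlaps between conditions, and the receptors IL8RA, IL8RB and CCR2 are open points, not well above background, with 1 exception each for IL8RA and IL8RB.

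None of the other chemokines passed the nominal threshold with PT-G or PT in the main model. Of 38 other chemokine genes 34 had a probe, and their log2 fold changes with PT-G and PT had medians of 0.01 and −0.01. Only 6 of the 34, PF4 (CXCL4), CX3CL1, XCL1, XCL2, CCL24 and CCL28, were well above background on all 16 arrays, and 8 were on none. The medians therefore count in many dim probes, whose differences are compressed. PF4, XCL1 and XCL2 differed by 0.34, 0.29 and 0.34 on the log2 scale with PT-G and by 0.31, 0.30 and 0.35 with PT. CX3CL1, CCL24 and CCL28 differed by −0.06, −0.11 and −0.26 with PT-G and by −0.10, −0.05 and −0.22 with PT. CXCL6, the relative of IL8 next in kind to CXCL5, was well above background on 3 arrays, and CXCL10, a chemokine of interferon responses, on 12. With p31-43, 1 of the 34 passed, where 0.388% of all probes did. This was CX3CL1, which by its brightest probe (A_24_P381901) fell by 0.23 on the log2 scale, from a mean of 6.62 to 6.39 (limma, adjusted p = 1.00), a change that passed the nominal threshold but was lost with the background-subtracted signal, with the filter on dim probes, and without MED-CTL replicate 2 or 4 or p31-43 replicate 4. The other 2 CX3CL1 probes gave differences of 0.0035 (A_23_P37727) and −0.02 (A_24_P390495). CCL23 was the 1 gene past the nominal threshold between PT-G and PT, with means of 6.09 and 6.50, well above background on no PT-G array and 2 PT arrays, a call lost with the run as a block, with 4 other alternatives and in 11 of 16 fits without 1 array.

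The cytokines and receptors that induce these chemokines were measured on the same arrays. Of 25 such genes, IL6 and F2R rose and NOD1 (CARD4 on the array) fell with both PT-G and PT at the nominal threshold, where 3.44% and 3.64% of all probes passed in either direction, none of them at an adjusted p under 0.05 in limma. IL6, an inflammatory cytokine, was well above background on 1 MED-CTL, 0 p31-43, 2 PT and 4 PT-G arrays, with means of 6.17, 6.18, 6.41 and 6.41. It lost the nominal threshold for both treatments with median scaling, where its p rose to 0.253 (PT-G) and 0.517 (PT), with the filter on dim probes, with marked spots kept and in fits of only 2 groups, and for PT also without PT replicate 4. F2R, the thrombin receptor PAR1, was 0.59 higher with PT-G and 0.60 higher with PT (SE 0.17 each), with adjusted p of 0.151 and 0.141 in limma, a call lost without MED-CTL replicate 2 for either treatment, without PT-G replicate 3 or 4, without PT replicate 3, and for PT-G with the background-subtracted signal. F2RL1, the trypsin-activated receptor PAR2, was 0.63 higher with PT-G (nominal p of 0.0572, limma) and 0.53 with PT, and did not pass. NOD1, a sensor of bacterial cell walls, fell by 0.38 with PT-G and by 0.36 with PT, a call lost with the background-subtracted signal, with median scaling and in 5 of 16 fits without 1 array for each treatment, and for PT also with normexp background correction, with the filter on dim probes and in a fit of only 2 groups. By their brightest probes, 14 of the 25 genes were well above background on all 16 arrays and 4 on none. The inducers TNF, IL1A and IL1B were well above background on 10, 0 and 3 arrays, and TLR4 on none. Of the 11 epithelial markers only KRT20, a keratin of differentiated enterocytes, passed, 0.63 higher with PT-G and 0.50 higher with PT (SE 0.12 each), with adjusted p of 0.0251 and 0.0884 in limma. The adjusted p for PT-G exceeded 0.05 without MED-CTL replicate 2 or 4 or PT-G replicate 2 or 4, reaching at most 0.0949.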

How the data were processed

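Total RNA of 16 Caco-2 cultures was hybridised to single-colour Agilent arrays. The authors deposited the Feature Extraction 9.5.3.1 output, a linear intensity per spot with the marks of control, outlier and well-above-background spots, and log2 values made by quantile normalization over all 45015 spots. Depth here means signal over background, and precision is limited by the number of arrays.

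Of 43376 spots that are not controls, log2 median intensities were quantile-normalized without background correction, outlier-marked spots (0.256%) were left out and spots of a probe averaged. One limma 3.58.1 model (R 4.3.3) of the 4 groups tested 40982 of 41000 probes, those keeping 3 or more arrays per group. The thresholds were a nominal p under 0.01, as in the study's methods, and a Benjamini-Hochberg adjusted p under 0.05. The model was tested on simulated data. The date in the array names gave 4 runs, and what it dates is not stated.

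Same-numbered arrays are independent experiments of one number in the labels. Over 24693 probes their deviations from the group means correlated at 0.44 to 0.89 for PT-G with MED-CTL and 0.30 to 0.78 for p31-43 with MED-CTL. The numbers were taken to pair these samples in the replicate block alternative only, and the main model had no block. MED-CTL replicate 1 belongs to run 2 and MED-CTL replicate 2 to run 1, while all other replicate numbers equal the run, and by run the correlations were 0.68 to 0.89 and 0.59 to 0.78. For PT with MED-CTL they were lower, −0.03 to 0.45 by replicate number and −0.03 to 0.69 by run, over 0.1 in 3 of 4 runs. For PT-G with PT they were 0.03 to 0.80. The block models for PT thus rest on a pairing that not every run shows. Alternatives were other background corrections and scalings, the log2 table as deposited, leaving out dim probes, marked spots kept, blocks for replicate number, run or slide, array weights (statmod 1.5.0), fits of 2 groups, and each array left out.

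Each gene of a list was taken by its brightest probe. Named from the lists were genes past the nominal threshold in any comparison and the receptors of the members, and F2RL1, TNF, IL1A, IL1B, TLR4, CXCL6 and CXCL10 were added after their values were seen. The members and lists were chosen with earlier results of these data known. Gene positions come from RefSeq, since the files state no genome build for the probes. The promoter table held no entry for CXCL16 and CCL2.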

Additional observations from a re-analysis of the deposited data

Results flagged for a closer look

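In 2 of 44 groups of 4 arrays, 11 probes in 4 conditions, 1 array stood apart from the other 3 by Dixon's test at the 95% level. CXCL2 (A_23_P315364) was 10.69 on the log2 scale on PT-G replicate 3, below the other PT-G arrays at 11.55 to 11.65. CXCL5 (A_23_P110204) was 5.91 on MED-CTL replicate 4, below the other MED-CTL arrays at 6.00 to 6.02, none of them well above background. Chance flags about 1 in 20 groups, and so about as many as were seen. Without PT-G replicate 3, 5 chemokine probes passed the nominal threshold for PT-G in place of 3.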

How the results depend on the processing

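Of the log2 fold changes reported, 49 were recomputed under 11 alternatives and without each array in turn. None of the 21 past the nominal threshold changed sign, and 16 of those short of it did. The count of chemokine probes called against MED-CTL was 3 for PT-G and 4 for PT. It rose to 7 for both with the replicate block and when the run was the block. Calls over all probes rose as well. In the main model 3.44% of all probes passed for PT-G and 3.64% for PT, in either direction. These shares were 7.59% and 8.49% with the replicate block, and 9.16% and 10.3% with the run block. Array weights, or the slide as a block, gave 7 chemokine probes for PT-G, where 7.37% and 12.2% of all probes passed. Leaving out 1 array gave 3 to 5 for PT-G (5 without MED-CTL replicate 1 or PT-G replicate 3) and 2 to 5 for PT (2 without MED-CTL replicate 4 or PT replicate 1). Between PT-G and PT the chemokine count became 1 with the slide as a block, where 0.364% of all probes passed, and for p31-43 it was 0 in every alternative. Replicate numbers of PT and MED-CTL paired less clearly, with correlations over 0.1 in 2 of 4 pairs. Median scaling moved the median over all probes for PT from −0.01 to −0.11. Log2 fold changes that turned sign for p31-43 were, with the background-subtracted signal, CXCL3 (A_24_P183150) to −0.098 and CCL20 to −0.079, with the slide as a block CXCL3 (A_24_P183150) to −0.037, and with median scaling CCL20 to −0.0017. For PT-G against PT they were, with the slide as a block, IL8 to −0.022 and CXCL2 (A_24_P257416) to 0.072, and with array weights CXCL1 to 0.25, CXCL2 (A_24_P257416) to 0.12 and CXCL16 to 0.027. Leaving out 1 array turned further small ones. For p31-43 CXCL1 ran from −0.40 to 0.15, CXCL2 (A_24_P257416) from −0.10 to 0.35, CXCL3 from −0.27 to 0.15 (A_24_P251764) and from −0.22 to 0.23 (A_24_P183150), CXCL5 from −0.36 to 0.11 and CCL20 from −0.073 to 0.15. For PT-G against PT, IL8 ran from −0.071 to 0.16, CXCL1 from −0.32 to 0.18, CXCL2 from −0.036 to 0.29 (A_23_P315364) and from −0.22 to 0.13 (A_24_P257416), CXCL3 (A_24_P251764) from −0.071 to 0.23, CXCL5 from −0.037 to 0.31 and CXCL16 from −0.11 to 0.034. Against MED-CTL, CXCL5 ran from −0.17 to 0.30 for PT-G and from −0.30 to 0.13 for PT, and CXCL16 from −0.12 to 0.015 for PT. The cause of these shifts was not tested. Signal limits IL8, IL6 and CCL2, which were well above background on 0, 1 and 1 of the 4 MED-CTL arrays.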
